A study of Bos taurus with 22 samples.

Results

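BCKDHB, OSBPL6, AMIGO2, BST1 and C7H19orf44 are 5 of 13535 genes tested in circulating white blood cells of heifers, and they were chosen because their difference between Sub-Fertile and Fertile heifers depended on breed. The choice used measured values: among the 1227 tested genes with a name at hand, these 5 had the smallest p-values for the interaction of breed and fertility. The names at hand favour genes with a small p for fertility over both breeds. Genes with opposite differences in the breeds were thus less likely to be chosen, and genes with a difference in a single breed more likely. In Holstein heifers, the Sub-Fertile group had 0.609 to 0.740 times the level of the Fertile group for BCKDHB, OSBPL6 and AMIGO2, and 1.82 and 1.76 times its level for BST1 and C7H19orf44, whereas in Angus heifers the 5 differences were all smaller than their standard errors. Those differences selected the genes, so they are given below as a description with no test. No gene of the 13535 passed an adjusted p of 0.05 for the interaction.

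Blood was drawn at the first artificial insemination from 22 purebred heifers, with 1 RNA-seq library per heifer, in 4 groups: 5 Holstein Sub-Fertile, 5 Holstein Fertile, 7 Angus Sub-Fertile and 5 Angus Fertile heifers. Holstein heifers averaged 12 months of age and had a 5-day synchronization protocol, whereas Angus heifers averaged 14 months and had a 7-day protocol. Both protocols used a progesterone insert. Sub-Fertile meant 4 or more inseminations or no pregnancy in Holstein heifers, and no pregnancy after 2 inseminations and exposure to a bull in Angus heifers. Fertile heifers of both breeds conceived at the first insemination and calved. Breed, age, protocol, herd management and the criterion for Sub-Fertile cannot be told apart in this design.

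BCKDHB, on chromosome 9 (ENSBTAG00000012096, 19804029 to 20074759 on ARS-UCD1.2), encodes the beta subunit of the mitochondrial dehydrogenase that carries out the committed step in the breakdown of leucine, isoleucine and valine. OSBPL6, on chromosome 2 (ENSBTAG00000014405, 18481775 to 18696841), belongs to the oxysterol-binding protein family, whose members bind sterols and phosphoinositides and move lipids where membranes meet. AMIGO2, on chromosome 5 (ENSBTAG00000002025, 33169556 to 33172868), encodes an adhesion protein of the cell surface with leucine-rich repeats. BST1, on chromosome 6 (ENSBTAG00000006156, 110872406 to 110901795), encodes CD157, a surface enzyme related to CD38 that acts on NAD and is known in human and mouse from neutrophils, monocytes and the stroma of bone marrow. C7H19orf44, on chromosome 7 (ENSBTAG00000002447, 6498766 to 6520939), is the cattle counterpart of a human open reading frame and is given no role here. All 5 are annotated as protein coding. In a RefSeq annotation of another assembly, ARS-UCD2.0, PCED1B overlaps AMIGO2 and LOC132345680 overlaps C7H19orf44, and no source used here gives the strand setting of the counting, so reads of these neighbours cannot be told apart from theirs.

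Total counts per heifer ranged from 12182400 to 49228035, with a median of 23158374. The median was 17198877 in Holstein Sub-Fertile, 17180109 in Holstein Fertile, 28354518 in Angus Sub-Fertile and 43397234 in Angus Fertile heifers. Depth thus differed between the breeds and between the Angus groups. Counts per heifer ranged from 115 to 624 for BCKDHB, 102 to 530 for OSBPL6, 192 to 895 for AMIGO2, 55 to 394 for BST1 and 50 to 390 for C7H19orf44. Values below are CPM, counts per 1000000 counted fragments of a heifer, and heifers carry the numbers of the sample labels. Of the 22 heifers, 16 formed 8 close pairs with near-equal profiles across genes: the biological coefficient of variation, the spread between 2 heifers beyond counting noise, was 0.0377 to 0.0828 in these pairs and 0.0980 to 0.260 in the other 223 pairings. None of the 8 pairs joined heifers of the same group, 6 joined a Sub-Fertile with a Fertile heifer, and 4 joined a Holstein with an Angus heifer. The source of this closeness was not tested, and standard errors from fits that count 22 separate heifers take no account of it. Bulk white blood cells were sequenced, so a change in the share of a cell type and a change in transcript abundance per cell cannot be told apart.

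The enzyme subunit BCKDHB was the tightest of the 5 genes. Its abundance was 10.97, 9.70, 10.15, 10.35 and 10.7 CPM in Holstein Sub-Fertile heifers, against 12.6, 12.7, 13.8, 14.4 and 16.4 CPM in Holstein Fertile heifers. Every Sub-Fertile Holstein was below every Fertile one. In Angus, it was 11.4 to 12.8 CPM in Sub-Fertile heifers (median 11.9, n = 7), against 14.6, 11.6, 11.8, 9.44 and 10.9 CPM in Fertile heifers. The Angus Sub-Fertile values fell inside the range of the Angus Fertile ones. The log2 fold change, Sub-Fertile over Fertile, was -0.44 (SE 0.10) in Holstein and 0.05 (SE 0.093) in Angus, a Holstein minus Angus difference of -0.48 (SE 0.14). The SD of log2 values within groups was 0.133 for BCKDHB, against 0.206 to 0.303 for the other 4 genes. Heifers 10 and 18, the highest of the Holstein Fertile and Angus Fertile groups at 16.4 and 14.6 CPM, were one of the close pairs, and without both the difference between breeds stayed within 1 within-group SD of its value.

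OSBPL6, the lipid-binding protein, had the lowest mean of the 4 groups in Holstein Sub-Fertile heifers. It was 7.87, 5.26, 7.78, 7.73 and 7.21 CPM in Holstein Sub-Fertile heifers, against 12.6, 14.9, 9.76, 8.99 and 12.5 CPM in Holstein Fertile heifers. These groups did not overlap either, and heifer 2 at 5.26 CPM lay well below the other 4 Sub-Fertile Holsteins. In Angus, it was 8.36 to 14.6 CPM in Sub-Fertile heifers (median 9.79, n = 7), against 10.2, 10.2, 8.31, 11.1 and 10.3 CPM in Fertile heifers. The 2 highest Angus Sub-Fertile heifers, at 14.6 and 13.6 CPM, were above all Angus Fertile ones, and the other 5 were not. The log2 fold change was -0.72 (SE 0.17) in Holstein and 0.08 (SE 0.15) in Angus, and the breeds differed by -0.80 (SE 0.23).

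AMIGO2, the adhesion protein, was at 14.0, 17.1, 18.3, 18.8 and 17.04 CPM in Holstein Sub-Fertile heifers, against 26.3, 33.4, 21.1, 20.6 and 23.5 CPM in Holstein Fertile heifers. The groups again did not overlap, with a gap between 18.8 and 20.6 CPM. In Angus, it was 15.1 to 22.4 CPM in Sub-Fertile heifers (median 18.8, n = 7), against 20.1, 19.6, 15.8, 15.8 and 15.5 CPM in Fertile heifers. All Angus heifers lay between 15.1 and 22.4 CPM, and the mean of the Holstein Fertile group, 25.0 CPM, was above all of them. The log2 fold change was -0.55 (SE 0.13) in Holstein and 0.11 (SE 0.12) in Angus, and the breeds differed by -0.66 (SE 0.18). Heifer 7, at 33.4 CPM, moved this difference most: it was -0.54 without that heifer.

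BST1, the NAD-consuming surface enzyme, ran the other way. Its abundance was 5.22, 7.58, 10.98, 8.31 and 7.71 CPM in Holstein Sub-Fertile heifers, against 5.53, 4.44, 3.42, 3.39 and 5.14 CPM in Holstein Fertile heifers. Of the Sub-Fertile Holsteins, 4 of 5 were above all Fertile ones, and heifer 1 at 5.22 CPM was not. In Angus, it was 3.83 to 6.70 CPM in Sub-Fertile heifers (median 5.65, n = 7), against 5.48, 6.03, 4.47, 6.65 and 5.21 CPM in Fertile heifers, and the groups overlapped throughout. The log2 fold change was 0.86 (SE 0.20) in Holstein and -0.02 (SE 0.19) in Angus, and the breeds differed by 0.89 (SE 0.27).

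Markers of neutrophils, cells in which BST1 is known to be found, were followed beside it. Of the 15 genes on the neutrophil list, 4 had a name here (CSF3R, MMP9, TGM3 and QSOX1), and none of the 4 was at 0 in any heifer. The names at hand favour genes with a small fertility p, so a fertility difference in these 4 was favoured in advance. Their summed abundance was 397 to 763 CPM in Holstein Sub-Fertile heifers (544 ± 155, SD, n = 5), against 249 to 505 CPM in Holstein Fertile heifers (399 ± 93.9, SD, n = 5). In Angus it was 355 to 709 CPM in Sub-Fertile heifers (480 ± 125, SD, n = 7), against 392 to 514 CPM in Fertile heifers (441 ± 49.9, SD, n = 5). CSF3R, the receptor for granulocyte colony-stimulating factor, carried the largest part of that sum and had a Holstein log2 fold change of 0.79 (SE 0.26), beside 1.47 (SE 0.52) for MMP9 and 1.31 (SE 0.68) for TGM3. QSOX1, a sulfhydryl oxidase, had the opposite sign: it averaged 130 ± 14.5 CPM in Holstein Sub-Fertile heifers and 170 ± 28.5 CPM in Holstein Fertile heifers (SD, n = 5 each), a log2 fold change of -0.39 (SE 0.14). The difference between breeds was -0.38 (SE 0.19) for QSOX1 and 0.67 (SE 0.35) for CSF3R. With the summed markers as a covariate, the Holstein log2 fold change of BST1 was 0.53 (SE 0.16) in place of 0.86, and the difference between breeds was 0.64 (SE 0.20) in place of 0.89. The same covariate gave -0.95 (SE 0.20) for OSBPL6, and it left the difference between breeds of all 5 genes within 1 within-group SD. CSF3R, the largest part of the covariate, ranked 3 among all tested genes in correlation with BST1 when group means were kept (r = 0.813). The fit therefore cannot tell the share of neutrophils from genes that move with BST1, and that share was not tested. The named markers of B cells (1 of 12), platelets (2 of 10), and eosinophils and basophils (2 of 12) had summed levels that overlapped between the Holstein groups, as did the neutrophil markers. None of the monocyte, T cell, natural killer cell or red blood cell markers had a name here.

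C7H19orf44 was at 4.77, 9.20, 7.83, 4.48 and 4.24 CPM in Holstein Sub-Fertile heifers, against 2.91, 4.52, 3.72, 3.05 and 3.36 CPM in Holstein Fertile heifers. Heifers 2 and 3 stood high in the Sub-Fertile group, and the other 3 lay near the highest Fertile Holstein, so the groups overlapped between 4.24 and 4.52 CPM. In Angus, it was 3.13 to 5.11 CPM in Sub-Fertile heifers (median 4.64, n = 7), against 3.67, 4.84, 5.22, 6.07 and 4.56 CPM in Fertile heifers. The log2 fold change was 0.82 (SE 0.21) in Holstein and -0.13 (SE 0.19) in Angus, and the breeds differed by 0.95 (SE 0.29). Without heifer 2 the Holstein value was 0.62 and the difference between breeds 0.75.

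**Figure D1:**
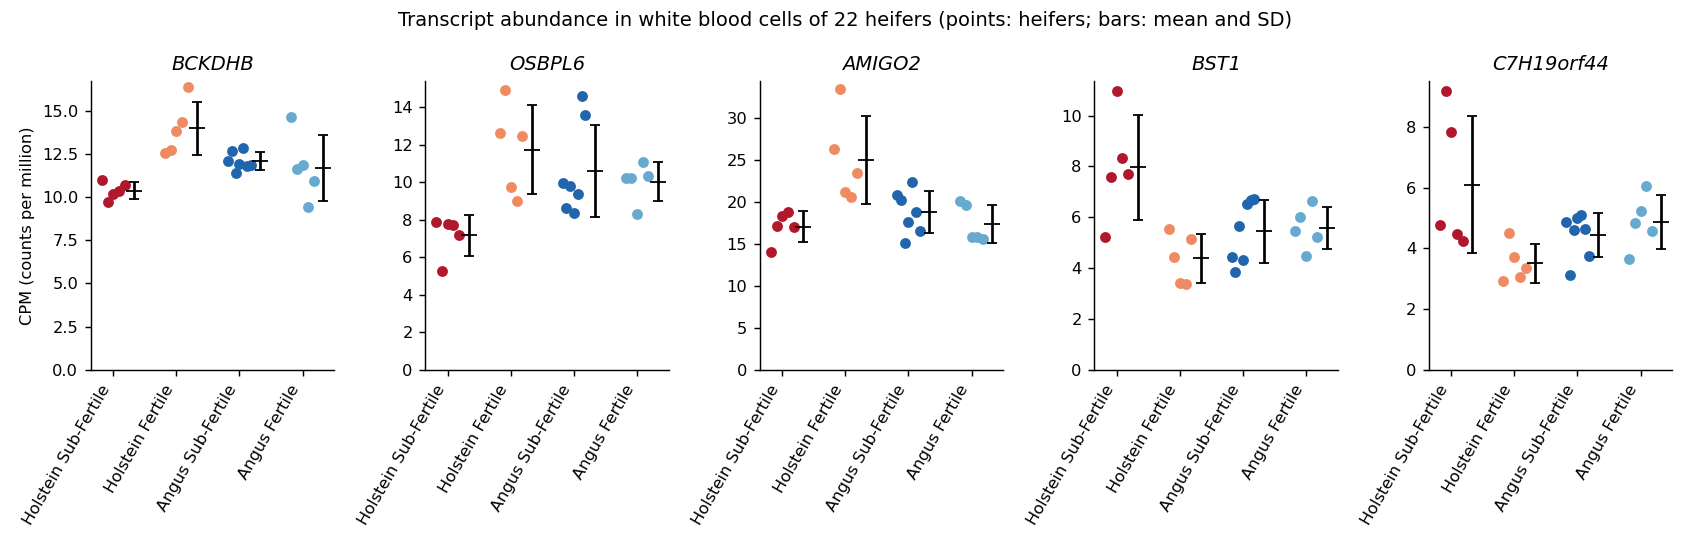
Transcript abundance of the 5 genes in CPM (y axis) by group (x axis), with 1 point per heifer and bars for the mean and SD. Holstein Sub-Fertile heifers (dark red) sit below all Holstein Fertile heifers (orange) for BCKDHB, OSBPL6 and AMIGO2, and mostly above them for BST1 and C7H19orf44, while the blue Angus groups overlap in each panel.

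Across all genes, the Holstein Sub-Fertile and Fertile groups did not overlap for 183 of 13535 genes (1.35%), and the Angus groups for 12 (0.0887%). Among the 5 genes, 3 did not overlap in Holstein (BCKDHB, OSBPL6 and AMIGO2) and 0 did in Angus. The same 3 had separate Holstein groups without heifers 10 and 18. Because the genes were picked on this contrast, nothing is read from these counts. The median absolute log2 fold change between fertility groups over all genes was 0.121 in Holstein and 0.0954 in Angus, and the 95th percentile was 0.59 and 0.38. OSBPL6, BST1 and C7H19orf44 lay beyond the Holstein 95th percentile, and none of the 5 lay beyond that of Angus. BCKDHB, with the smallest Holstein difference of the 5, was nearer to the bulk of genes, at the 90.3rd percentile of absolute values.

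**Figure D2:**
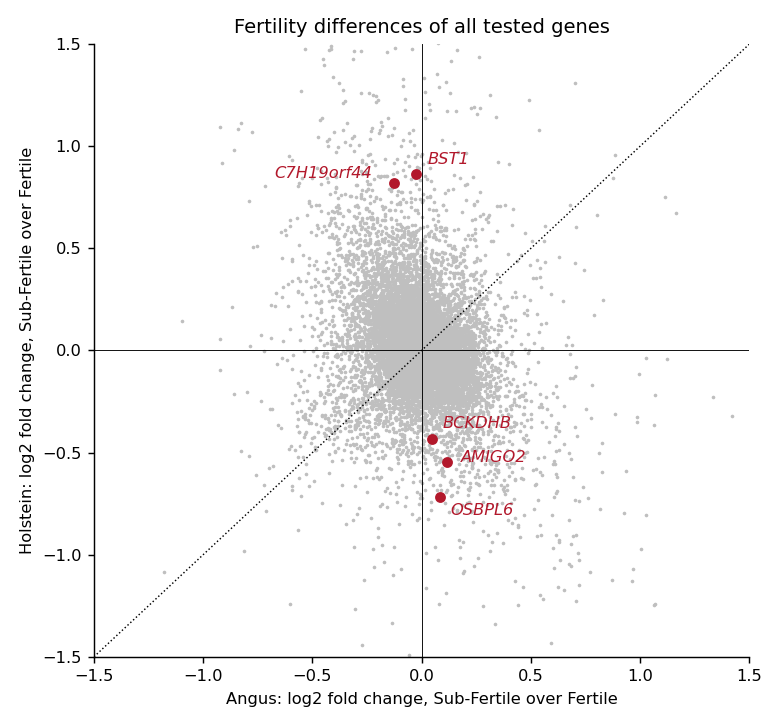
Log2 fold change, Sub-Fertile over Fertile, in Holstein (y axis) against Angus (x axis) for the tested genes, with the 5 chosen genes in red. The dotted line marks equal differences in both breeds, 47 genes lie outside the axes, and the 5 genes lie close to the line of no difference in Angus, with 3 below and 2 above zero in Holstein. The choice among named genes favoured a difference in a single breed.

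The interaction of breed and fertility had an adjusted p under 0.05 for 0 of 13535 genes (0%) in edgeR's quasi-likelihood test, and DESeq2 also called 0. At an unadjusted p under 0.05 it held 1408 genes (10.4%), among them the 5 by their choice. The smallest adjusted p of any gene was 0.463. Ranked by unadjusted p over all genes, AMIGO2 was at place 24, BCKDHB at 36, OSBPL6 at 43, C7H19orf44 at 72 and BST1 at 94, and 89 genes without a name at hand stood above BST1. Just inside the choice was BST1, with a difference between breeds of 0.89 (SE 0.27), and just outside were ASNS at place 108 (-0.70, SE 0.22) and RUFY3 at place 115 (0.45, SE 0.14). ASNS makes asparagine, and RUFY3 is an adaptor for organelle transport along microtubules. ASNS averaged 16.1 ± 1.74 CPM in Holstein Sub-Fertile and 26.2 ± 5.49 CPM in Holstein Fertile heifers (SD, n = 5 each).

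**Figure D3:**
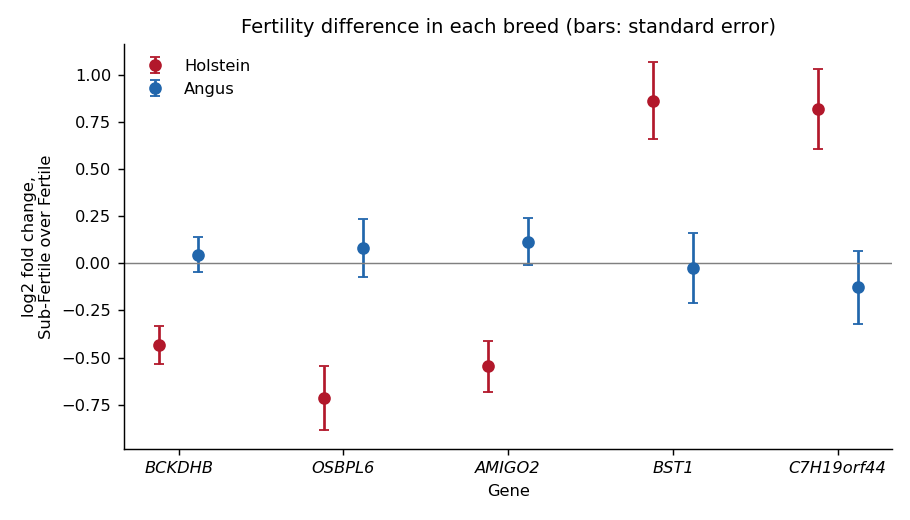
Log2 fold change, Sub-Fertile over Fertile, of each gene in Holstein (red) and Angus (blue), with bars for the standard error. The Holstein values run from -0.72 for OSBPL6 to 0.86 for BST1, and the Angus values from -0.13 for C7H19orf44 to 0.11 for AMIGO2.

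The close pairs allow the same comparison between heifers of near-equal profiles. One pair joined a Sub-Fertile and a Fertile Holstein, heifers 5 and 6. OSBPL6 was 7.21 CPM in the Sub-Fertile and 12.6 CPM in the Fertile heifer of that pair, and AMIGO2 was 17.04 CPM in the Sub-Fertile and 26.3 CPM in the Fertile heifer. The log2 differences in the pair, Sub-Fertile minus Fertile, were -0.226 for BCKDHB, -0.768 for OSBPL6, -0.609 for AMIGO2, 0.444 for BST1 and 0.475 for C7H19orf44, all in the direction of the group means. These are 2 heifers that also entered the choice of genes. For the 3 pairs of a Sub-Fertile and a Fertile Angus (heifers 15 and 19, 14 and 20, and 13 and 22), the 15 differences lay between -0.121 and 0.189. The Holstein pair was less close, with a coefficient of variation of 0.0812, against 0.0377, 0.0584 and 0.0451 in these Angus pairs. Breed and the closeness of the pair therefore cannot be told apart in this comparison.

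**Figure D4:**
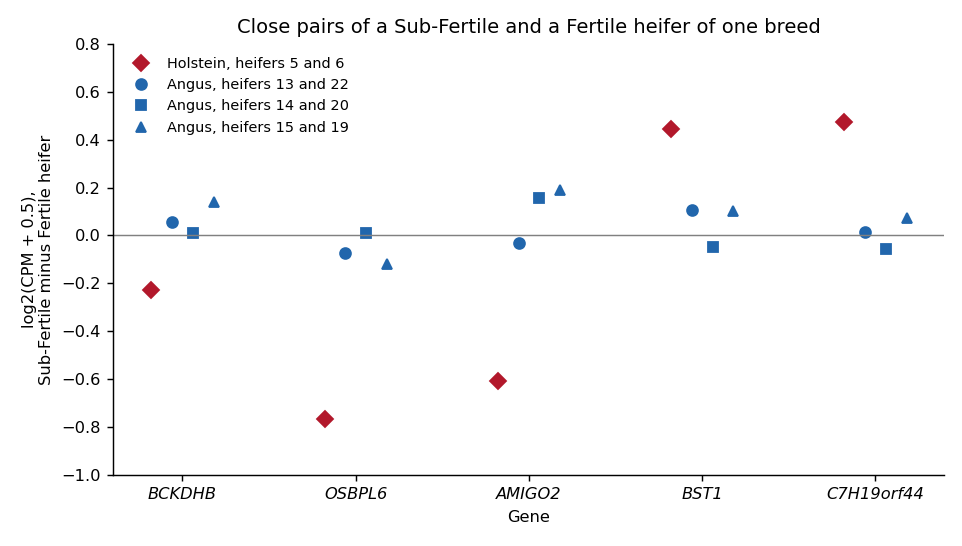
Differences of log2(CPM + 0.5), Sub-Fertile minus Fertile heifer (y axis), for the 5 genes (x axis) in the 4 close pairs that joined both fertility groups of one breed. The Holstein pair (red diamonds) reaches -0.768 for OSBPL6 and 0.475 for C7H19orf44, while the 3 Angus pairs (blue) stay between -0.121 and 0.189. The Holstein pair is also the least close of the 4.

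The 4 pairs that crossed the breeds showed where close heifers still differed. In heifers 7 and 16, OSBPL6 was 14.9 CPM in the Holstein Fertile and 14.6 CPM in the Angus Sub-Fertile heifer, whereas AMIGO2 was 33.4 CPM in the Holstein and 18.8 CPM in the Angus. In heifers 1 and 11, both Sub-Fertile, AMIGO2 was 14.0 CPM in the Holstein and 20.8 CPM in the Angus. Over the 8 pairs, the median absolute log2 difference was 0.0636 for C7H19orf44, against 0.340 in the other 223 pairings. For BST1 it was 0.127 against 0.380, for OSBPL6 0.144 against 0.341, and for BCKDHB 0.128 against 0.191. AMIGO2 was the gene whose spread shrank least in close pairs, with 0.206 against 0.253.

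Fits that used the pairs changed the sizes. With the 16 paired heifers and each pair as a fixed block, the difference between breeds was -0.31 (SE 0.13) for BCKDHB, -0.65 (SE 0.15) for OSBPL6, -0.81 (SE 0.19) for AMIGO2, 0.41 (SE 0.19) for BST1 and 0.26 (SE 0.22) for C7H19orf44. The 5 values kept their signs, and those of BCKDHB, BST1 and C7H19orf44 were smaller than with all heifers by over 1.5 times. These heifers also entered the choice of genes, so nothing is read from the kept signs. With the pairs as a random block over all 22 heifers, C7H19orf44 was at 0.59 (SE 0.19) and BST1 at 0.60 (SE 0.16). In the fixed-block fit 1 gene passed the adjusted threshold for the interaction, ENSBTAG00000050603, named after its value was seen (log2 difference -0.79, SE 0.098, edgeR adjusted p = 0.030).

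**Figure D5:**
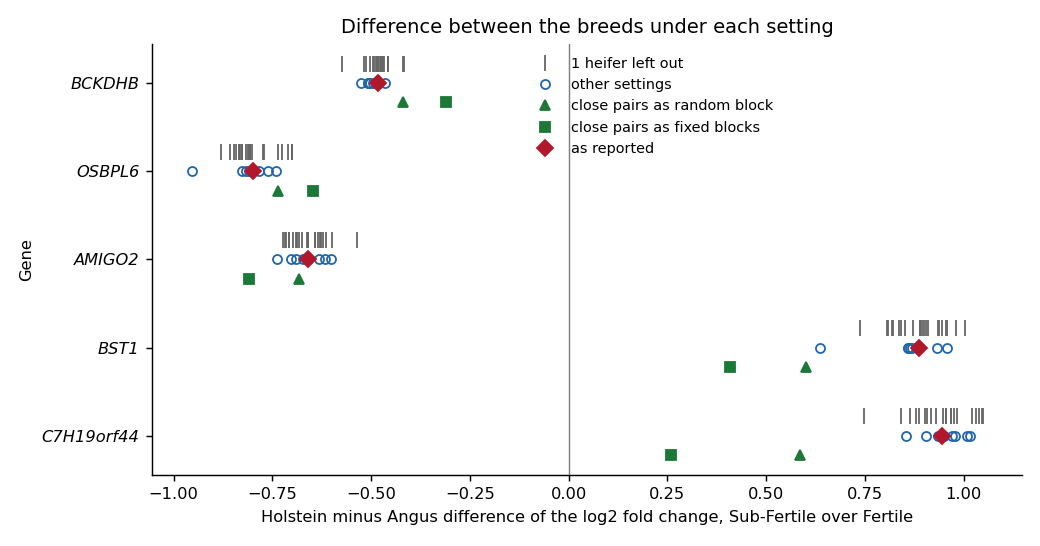
Holstein minus Angus difference of the log2 fold change, Sub-Fertile over Fertile (x axis), for each gene (y axis) as reported (red diamonds), with 1 heifer left out (grey ticks), under other settings (blue circles) and with the close pairs as random (triangles) or fixed (squares) blocks. No setting crosses zero, and the fixed-block value of C7H19orf44, 0.26, lies farthest from its reported 0.95. The genes were chosen by this difference in these same heifers, so kept signs were favoured in advance.

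The comparison of the breeds was the contrast of the design that the choice had not used. Over both fertility groups, BCKDHB averaged 0.00 (SE 0.085) on the log2 scale, Holstein over Angus, with an edgeR adjusted p of 0.994. OSBPL6 was at -0.19 (SE 0.14, edgeR adjusted p = 0.623) and AMIGO2 at 0.17 (SE 0.11, edgeR adjusted p = 0.573). BST1 was at 0.16 (SE 0.16, edgeR adjusted p = 0.738) and C7H19orf44 at 0.05 (SE 0.17, edgeR adjusted p = 0.927). For breed, 0 of 13535 genes (0%) had an adjusted p under 0.05 in edgeR, 10 in DESeq2, and 1440 (10.6%) an unadjusted p under 0.05 in edgeR. In this model, which had terms for breed and fertility, 0 of the 5 genes passed at either threshold. That model leaves the interaction in its residual spread, and the 5 genes were chosen by the interaction. Its SE was larger for each of the 5 than with a term per group, as 0.085 against 0.068 for BCKDHB. The choice therefore bears on this count. As an equal-weight mean over the fertility groups, breed had an unadjusted p under 0.05 for 1683 genes (12.4%) and for 1 of the 5, AMIGO2, at 0.19 (SE 0.090, edgeR unadjusted p = 0.044, adjusted p = 0.389). The signs of BCKDHB and C7H19orf44 changed when single heifers were left out, from -0.041 without heifer 10 to 0.032 without heifer 2 for BCKDHB, and from -0.086 without heifer 2 to 0.11 without heifer 21 for C7H19orf44.

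With the 4 group means taken out, the 5 genes were compared with each other over the 22 heifers. OSBPL6 and BST1, which differed in opposite directions between the Holstein groups, had a positive correlation within groups (r = 0.573, permutation p = 0.0161, rho = 0.607, permutation p = 0.00972). BCKDHB and C7H19orf44 had a negative one (r = -0.471, permutation p = 0.0108, rho = -0.473, permutation p = 0.0327). Over the 10 pairs of genes neither passed: the adjusted p was 0.0804 for both values of r, and 0.0972 and 0.163 for rho. Without the 2 heifers farthest from the median on the first gene, r was 0.577 for OSBPL6 and BST1 and -0.322 for BCKDHB and C7H19orf44. With each close pair averaged, which left 14 units, r was 0.658 and -0.470. The permutation p-values above count 22 separate heifers and take no account of the close pairs. The other 8 pairs had r between -0.229 and 0.313.

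The named genes most like each of the 5 were taken from the same within-group values over 22 heifers, as a description. The heifers of close pairs enter all of these values. BCKDHB ran closest with PSMD14, a deubiquitinase of the proteasome lid (r = 0.911), SNRPF, a core protein of spliceosomal particles (r = 0.886), and CENPL, a centromere protein (r = 0.862). PSMD14 and SNRPF had the highest r with BCKDHB of all tested genes. By rank CENPL was less near, with a rho of 0.607, against 0.805 for PSMD14 and 0.843 for SNRPF. OSBPL6 ran with GPR35, a G protein-coupled receptor (r = 0.836, the highest of any tested gene), MAN1C1, a mannosidase of the Golgi (r = 0.778), and FGD6, an exchange factor for small GTPases (r = 0.726). BST1 ran with HECTD4, a ubiquitin ligase (r = 0.810), CCNJL, a cyclin-like protein (r = 0.791), and KCNJ2, an inward rectifier potassium channel (r = 0.786). C7H19orf44 ran with ERF, a transcriptional repressor of the ETS family (r = 0.802), SLC27A5, a ligase for bile acids and fatty acids (r = 0.784), and RABGEF1, an exchange factor for Rab5 (r = 0.761). Genes without a name ran closer with both: HECTD4 was at place 6 of all tested genes for BST1, and ERF at place 34 for C7H19orf44. The highest r of any tested gene was 0.825 with BST1 and 0.901 with C7H19orf44. AMIGO2 had no named gene as near: CADM4, another adhesion protein, and PROM1, a membrane glycoprotein, both had r = 0.563, and CTNNAL1, a catenin-like protein, had r = 0.552. The highest r of any tested gene with AMIGO2 was 0.793.

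Few partners of the 5 genes could be followed by name. On the list of NAD and cyclic ADP-ribose metabolism, 1 of 25 genes was named, CD38, which lies next to BST1 in RefSeq gene order and encodes the related enzyme. CD38 averaged 83.2 ± 31.8 CPM in Holstein Sub-Fertile heifers and 60.2 ± 21.9 CPM in Holstein Fertile heifers (SD, n = 5 each), with a log2 fold change of 0.47 (SE 0.30). In Angus it averaged 72.6 ± 12.1 CPM in Sub-Fertile heifers (SD, n = 7) and 63.2 ± 27.2 CPM in Fertile heifers (SD, n = 5), with 0.19 (SE 0.28). Its difference between breeds was 0.28 (SE 0.41, edgeR adjusted p = 0.812). On the list of oxysterol-binding proteins and partners, 1 of 17 was named, OSBPL1A, a relative of OSBPL6. The log2 fold change of OSBPL1A was -0.32 (SE 0.14) in Holstein and -0.05 (SE 0.13) in Angus, and the difference was -0.27 (SE 0.19, edgeR adjusted p = 0.592). For branched-chain amino acid breakdown 0 of 24 and for AMIGO relatives 0 of 21 genes had a name at hand. Of the 11 named genes on all lists, markers included, 0 passed the interaction at an adjusted or an unadjusted p under 0.05 in edgeR, beside 0% and 10.4% of all genes. These 11 are not a like sample of all genes, as the names at hand favour a small p for fertility over both breeds.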

How the data were processed

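Total RNA of circulating white blood cells was sequenced from poly(A)-selected, stranded libraries. The authors aligned reads to ARS-UCD1.2 with HISAT2, filtered alignments with SAMtools, removed duplicates and counted fragments per Ensembl gene. No source used here gives their versions. The file deposited by the authors holds unnormalised counts for 27607 genes (4389 at 0 in every heifer). Groups came from the sample labels.

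The CPM filter of the authors' code, a minimum of 5 heifers over 1 CPM, kept 13535 genes. The authors also required an FPKM above 1 and certain biotypes; these criteria were left out here, as lengths and biotypes were at hand for few genes. Counts were fitted with edgeR 4.0.16 (R 4.3.3) with robust quasi-likelihood estimation, total counts as library sizes and Benjamini-Hochberg adjustment over all tested genes. One model had a term per group (fertility in each breed and the interaction), and one had breed and fertility (breed). The edgeR fits were also run on simulated counts of independent heifers. That simulation held no close pairs, so it cannot speak for SEs or calls in their presence. Alternatives used TMM factors, DESeq2 1.42.0, limma 3.58.1 (voom, with or without close pairs as a random block), other filters, covariates and sets of heifers. Close pairs were mutually nearest heifers over 7746 genes with a mean CPM above 20, at under 0.5 of the median coefficient of all pairings. Correlations used log2(CPM + 0.5) less group means, with 100000 two-sided permutations within groups (Python 3.11.15, numpy 2.4.6, scipy 1.17.1). SEs were the absolute log2 fold change over the square root of the test's F statistic (the squared t in limma). They cover the spread between these heifers.

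Names and positions came from 1401 annotated genes at hand, which the authors had ordered by their fertility p-value, so genes of small fertility p are favoured. The authors' own fold changes and p-values were not used. The genes named are the 5 chosen, the 2 next by interaction p, the 3 most alike named genes per gene, and list genes (up to 4 per list). The 5 genes, the 12 lists and the tests were chosen with earlier results of these data known.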

Additional observations from a re-analysis of the deposited data

Results flagged for a closer look

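OSBPL6 was at 5.26 CPM in heifer 2, below the other 4 Holstein Sub-Fertile heifers at 7.21 to 7.87 CPM, and the gap to the nearest of them was 0.747 of the range of the group, above Dixon's 95% critical value for 5 samples. This was the only one of 20 gene-by-group sets of heifers to pass that limit, and chance gives about 1 in 20. Heifer 2 had the deepest library of its group, with 42371919 counts. Without it, the Holstein log2 fold change of OSBPL6 was -0.62 and the difference between breeds -0.70.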

How the results depend on the processing

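With close pairs as fixed blocks, the difference between breeds was -0.31 for BCKDHB, 0.41 for BST1 and 0.26 for C7H19orf44, and the Holstein log2 fold change -0.24, 0.50 and 0.26. C7H19orf44 was at 0.59 with the pairs as a random block, and BST1 at 0.53 in Holstein with the neutrophil covariate. The other 166 values of the difference between breeds, 171 of the Holstein and 175 of the Angus fold change moved by less than the within-group SD. With 1 heifer left out, the difference between breeds ran from -0.57 to -0.42 for BCKDHB, -0.88 to -0.70 for OSBPL6, -0.72 to -0.54 for AMIGO2, 0.74 to 1.002 for BST1 and 0.75 to 1.05 for C7H19orf44.

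The breed fold change changed sign for BCKDHB with the first principal component as a covariate (-0.025), without heifers 10 and 18 (-0.014) and with 1 heifer left out (-0.041 to 0.032). It did so for BST1 with fixed blocks (-0.048), and for C7H19orf44 as an equal-weight mean (-0.00069) and with 1 heifer left out (-0.086 to 0.11). In the model of breed and fertility, the lowest edgeR, DESeq2 or limma adjusted p of a breed value was 0.319 with 1 heifer left out and 0.471 in the other settings. As an equal-weight mean it was 0.389 for AMIGO2 in edgeR, and the lowest was 0.226 with 1 heifer left out and 0.211 in the other settings (without heifers 10 and 18), both for AMIGO2. The interaction called 1 gene with fixed blocks and breed 10 genes in DESeq2 (23 as an equal-weight mean), in place of 0. Unadjusted interaction calls ran from 959 to 2014 with 1 heifer left out. With group means kept, the 3 most alike named genes shared 1 with those reported for BCKDHB, 2 for OSBPL6, 0 for AMIGO2, 1 for BST1 and 2 for C7H19orf44. The causes of these shifts were not tested.

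No paired analysis was possible from the labels because they number heifers from 1 to 22, with no number shared by groups; the pairs used above came from the data. The T cell covariate was not run, as no T cell marker had a name. The pair means in place of heifers, and the overlap without heifers 10 and 18, were added after seeing the data. Counts as low as 55 for BST1 and 50 for C7H19orf44 limit the precision of those genes.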
